A study of Mus musculus with 4 samples.

Results

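Hepatic glucose output was examined through 10 genes of gluconeogenesis and glycogen metabolism in Control and Cnot3KO livers. The genes were chosen by name for their role: G6pc, Pck1, Fbp1, Pcx and Slc37a4 of gluconeogenesis, Gys2, Pygl and Ppp1r3g of glycogen storage, Pdk4, and the coactivator Ppargc1a. They make up 10 of the 18193 genes that a probe set of the array names alone, and they are read by 16 of 45037 probe sets, all of which passed the filter on low values. Whole livers of C57BL/6 mice aged 4 weeks were compared, 2 Control livers labelled wild type and 2 Cnot3KO livers, each on 1 array. The Cnot3 protein belongs to the Ccr4-Not deadenylase, which removes poly(A) tails from mRNAs, and the knockout was made with floxed Cnot3 and Cre recombinase driven by the albumin promoter, which is active in hepatocytes. By the study's methods, control mice could carry floxed Cnot3 without Cre, or Alb-cre with no floxed allele or with 1, and which of these the Control livers carried, as well as the sex of the mice, their feeding state and the hour of dissection, is not given in the sources used here.

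Between meals the liver keeps blood glucose up by breaking down glycogen and by making new glucose from pyruvate, lactate, glycerol and amino acids. Pcx turns pyruvate into oxaloacetate, Pck1 turns oxaloacetate into phosphoenolpyruvate, Fbp1 acts near the end of the route, and Slc37a4 carries glucose 6-phosphate into the endoplasmic reticulum, where G6pc releases free glucose. Transcription of G6pc and Pck1 is raised by glucagon and glucocorticoids and lowered by insulin, Ppargc1a is a coactivator of that response, and Pdk4 shuts the pyruvate dehydrogenase complex during fasting and so spares pyruvate.

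Pck1 and G6pc are the 2 genes best known as hormone-controlled, and Pdk4 is the 1 gene of the 10 that passed the test described below. To show regulatory sequence, the 250 bases before the start site of Pck1, G6pc and Pdk4 are printed from RefSeq on GRCm38.p6, each 5′ to 3′ on the strand of its gene. They lie at chr2:173152823-173153072 on the plus strand for Pck1, at chr11:101367466-101367715 on the plus strand for G6pc and at chr6:5496279-5496528 on the minus strand for Pdk4. Capitals mark the letters TGACG of a cAMP response element, TGTTTTG of an insulin response unit, TGTTTAC of a FOXO site or TATAAA of a TATA box, searched on both strands.
Pck1: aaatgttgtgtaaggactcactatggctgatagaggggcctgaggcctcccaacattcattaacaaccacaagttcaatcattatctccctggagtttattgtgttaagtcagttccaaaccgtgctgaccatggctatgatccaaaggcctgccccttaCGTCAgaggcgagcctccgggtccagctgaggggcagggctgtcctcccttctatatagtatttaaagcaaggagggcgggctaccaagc
G6pc: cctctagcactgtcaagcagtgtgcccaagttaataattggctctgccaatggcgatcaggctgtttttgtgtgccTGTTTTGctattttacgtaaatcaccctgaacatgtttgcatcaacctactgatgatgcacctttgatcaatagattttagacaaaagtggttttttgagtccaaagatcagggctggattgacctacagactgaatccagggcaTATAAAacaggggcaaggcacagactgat
Pdk4: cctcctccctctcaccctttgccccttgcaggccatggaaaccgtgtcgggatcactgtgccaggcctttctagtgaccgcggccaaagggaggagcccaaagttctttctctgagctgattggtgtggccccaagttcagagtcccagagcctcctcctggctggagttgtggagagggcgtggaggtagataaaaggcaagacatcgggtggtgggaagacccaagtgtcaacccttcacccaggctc
In the Pck1 window the letters of the cAMP response element lie 90 to 86 bases before the start site, read on the opposite strand as CGTCA. The G6pc window holds TGTTTTG 174 to 168 bases and TATAAA 29 to 24 bases before the start site. None of the 4 motifs is in the Pdk4 window. Of the 10 genes 9 were in the RefSeq table, all but Gys2. Slc37a4 and Pcx had more than 1 window there, and a gene was counted if any of its windows held the letters. The shares of all windows are per window, so they are not like for like with the counts of genes. TGACG occurs in a window of 5 of these 9 genes (Pck1, Slc37a4, Pygl, Ppp1r3g and Ppargc1a) and in 17.8% of all 32851 windows of that length. TGTTTTG occurs in 1 of the 9 (G6pc) and in 5.56% of all windows, TATAAA in 2 (G6pc and Slc37a4) and in 12.4%, and TGTTTAC in 0 and in 3.17%. Motifs were searched as letters alone, and whether a factor binds there was not measured.

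Values are log2 of the intensities that Robust Multi-array Average (RMA) gave, differences are Cnot3KO minus Control on that scale with their standard error (SE), and n = 2 arrays per group throughout. A gene was called changed at an adjusted p under 0.05 in limma, with p adjusted over all 38405 probe sets that passed the filter. Each gene is described by its probe set of highest mean signal unless another is named, and levels are not compared between genes because probe sets differ in brightness. The array medians ran from 3.09 to 3.14 and their 20th percentiles, the lower limit of the filter, from 1.54 to 1.69. Cnot3 itself was at 5.99 and 6.04 in the Control livers against 5.15 and 5.30 in the Cnot3KO livers, a fall of −0.79 ± 0.16 (adjusted p = 0.0372), while its other probe set was at −0.40 (adjusted p = 0.218). No call was made for Cnot3 with each array left out in turn, where its differences ran from −0.87 to −0.71. Albumin (Alb), the defining product of hepatocytes, lay between 13.7 and 13.8 on all 4 arrays. In RNA from whole liver, fewer cells of a type and less RNA per cell cannot be told apart.

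Of the 10 genes, 1 was higher in Cnot3KO livers (Pdk4), 0 were lower and 9 did not pass the test. Over all 16758 genes tested, 12.2% were called higher and 4.64% lower. By limma's p before adjustment, G6pc and Pcx were also under 0.05, both of them lower. For 7 of the 10 genes no array of a group lay within the range of the other. In 5 of them (G6pc, Pck1, Pcx, Gys2 and Pygl) both Cnot3KO arrays lay below both Control arrays, an order seen in 30.3% of all genes, and in 2 (Pdk4 and Ppargc1a) both lay above, seen in 34.8% of all genes. More than 2-fold differences were found for Pdk4 upward and for G6pc and Gys2 downward, against 11.6% of all genes upward and 3.96% downward. The median difference of the 10 genes was −0.41, and that of all genes was 0.00.

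**Figure D1:**
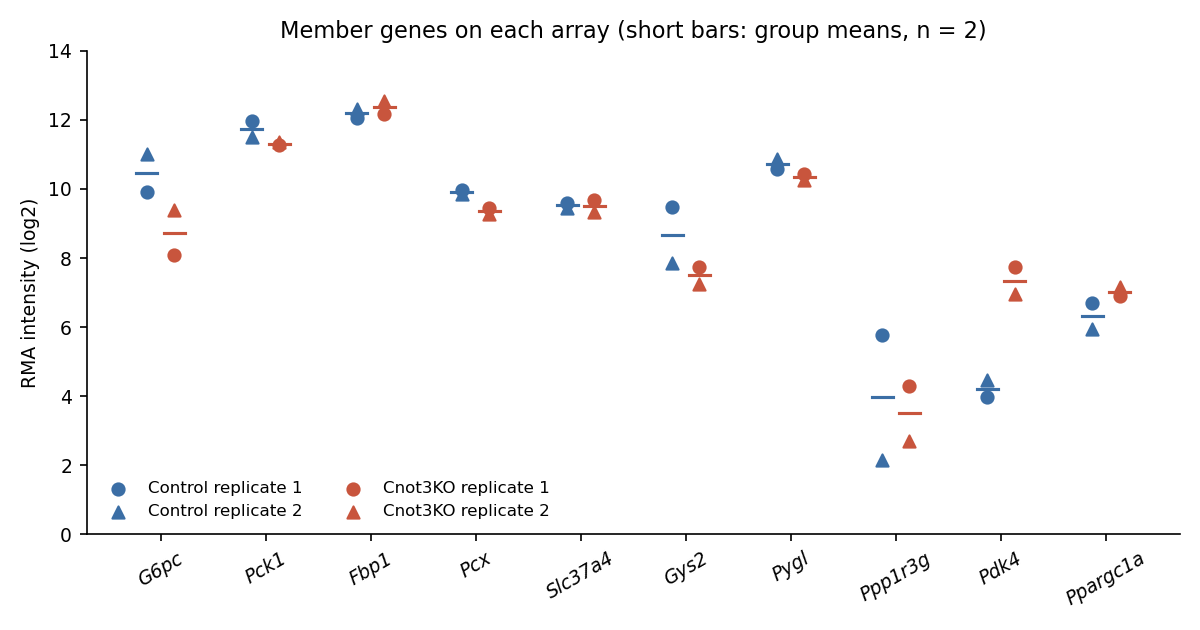
The log2 RMA intensity of the 10 genes on each array, with circles for replicate 1 and triangles for replicate 2, blue for Control, red for Cnot3KO and short bars for group means of 2 arrays. Pdk4 lies at 3.97 and 4.46 in Control against 7.74 and 6.95 in Cnot3KO, while the Ppp1r3g arrays of both groups spread from 2.15 to 5.78.

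Among the gluconeogenic enzymes, none passed the test, and the largest difference was that of G6pc, the catalytic subunit of glucose-6-phosphatase. G6pc was at 9.91 and 11.02 in the Control livers against 8.07 and 9.40 in the Cnot3KO livers. Both Cnot3KO arrays were below both Control arrays, but the arrays of each group were farther from each other than the nearest arrays of different groups. The difference of −1.73 ± 0.55 had a 95% interval from −3.11 to −0.35, a Control level 3.32-fold that of Cnot3KO, and an adjusted p of 0.101. It passed where the second Cnot3KO array was left out (−2.39, adjusted p = 0.0408) and ranged down to −1.07 where the other Cnot3KO array was left out.

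Pcx, the pyruvate carboxylase that starts the route in mitochondria, was at 9.96 and 9.86 in the Control livers against 9.46 and 9.26 in the Cnot3KO livers. The arrays of each group lay close together and the groups were apart, with a difference of −0.55 ± 0.17 (95% interval −0.98 to −0.12, adjusted p = 0.0955). Fbp1, fructose-1,6-bisphosphatase, was at 12.06 and 12.31 in the Control livers against 12.18 and 12.54 in the Cnot3KO livers, with overlapping groups and a difference of 0.18 ± 0.21 (95% interval −0.34 to 0.70, adjusted p = 0.598). Slc37a4, the glucose 6-phosphate transporter, was at 9.60 and 9.45 in the Control livers against 9.67 and 9.33 in the Cnot3KO livers. Its groups overlapped as well, and the difference was −0.03 ± 0.19 (95% interval −0.51 to 0.46, adjusted p = 0.938). The intervals of Fbp1 and Slc37a4 do not reach the estimate for G6pc, the enzyme that acts on what Slc37a4 delivers. The interval of G6pc itself, −3.11 to −0.35, overlaps that of Slc37a4 and ends just below that of Fbp1. The differences between these genes were not themselves tested.

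Pck1, the cytosolic phosphoenolpyruvate carboxykinase, was read by 3 probe sets that all lay lower in Cnot3KO and that differed in size. The brightest, 1423439_at, was at 11.97 and 11.51 in the Control livers against 11.26 and 11.34 in the Cnot3KO livers (−0.44 ± 0.21, 95% interval −0.97 to 0.09, adjusted p = 0.228). The probe set 1439617_s_at, whose suffix marks probes shared between transcripts, was at 7.73 and 7.34 in the Control livers against 6.48 and 7.01 in the Cnot3KO livers (−0.79 ± 0.25, adjusted p = 0.106). The dimmest, 1455209_at, was at 2.53 and 2.25 in the Control livers against 1.45 and 1.12 in the Cnot3KO livers and was called lower (−1.11 ± 0.21, adjusted p = 0.0281). Its Cnot3KO values were below the 20th percentile of their arrays, 1.54 and 1.55, so it passed the filter through the Control arrays alone. Its call is therefore not read as support for a lower Pck1. Its call was lost with any 1 array left out, with differences from −1.27 to −0.94 and adjusted p from 0.0558 to 0.122. The groups of all 3 probe sets were apart. Pck2, the mitochondrial form of the enzyme and not among the 10 genes, was at 5.36 and 4.70 in the Control livers against 6.44 and 6.09 in the Cnot3KO livers, a rise of 1.23 ± 0.28 (adjusted p = 0.0453). The other Pck2 probe set was at 0.96 (adjusted p = 0.0550), and the Pck2 call was lost with any 1 array left out, with differences from 0.90 to 1.57.

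**Figure D2:**
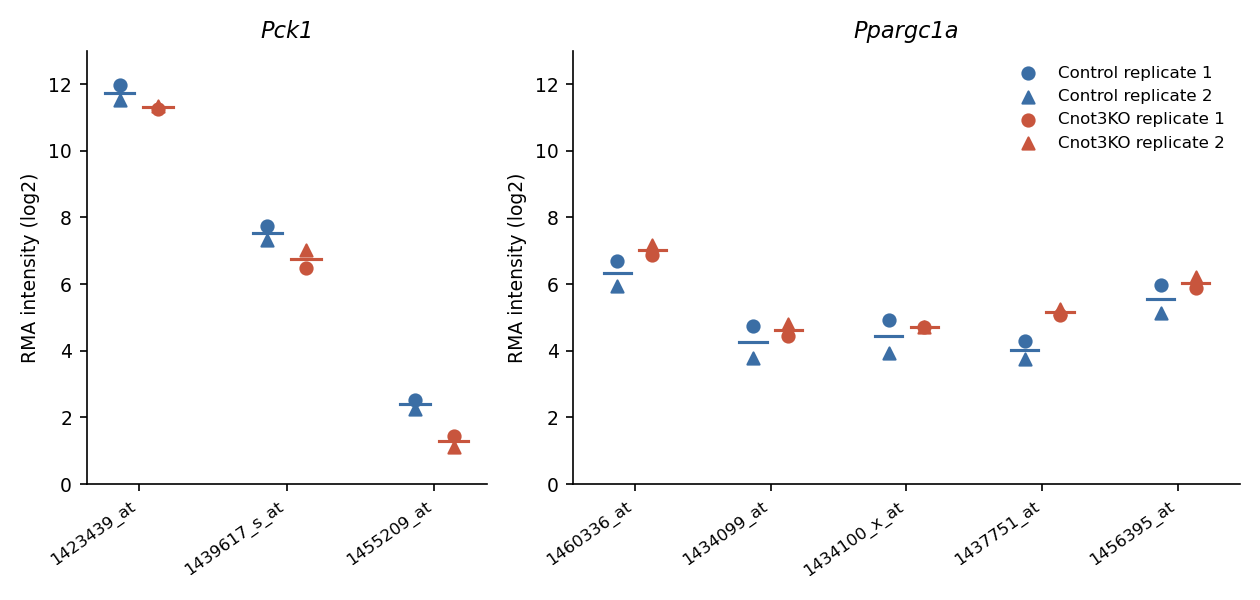
The log2 RMA intensity on each array for the 3 probe sets of Pck1 and the 5 of Ppargc1a, the 2 genes of the 10 with more than 1 probe set. All 3 Pck1 probe sets are lower in Cnot3KO, from −0.44 at the brightest to −1.11 at the dimmest. The dimmest passed the filter on low values through Control alone. Of the 5 Ppargc1a probe sets, 2 have groups that are apart.

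Over the 16 probe sets of the 10 genes, 2 were called higher (Pdk4 and 1 of Ppargc1a), 1 lower and 13 did not pass. The 1 called lower is the Pck1 probe set that passed the filter through Control alone. Of all probe sets, 8.48% were called higher and 4.78% lower. For 8 of the 10 genes the array had a single probe set, so those values stand without a check from another probe set.

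None of the 3 glycogen genes passed the test. Gys2, the glycogen synthase of liver, was at 9.47 and 7.86 in the Control livers against 7.74 and 7.25 in the Cnot3KO livers. The groups did not overlap, but the second Control array was nearer to the Cnot3KO arrays than to the other Control array. The difference was −1.17 ± 0.54 (95% interval −2.52 to 0.18, adjusted p = 0.209). Without the second Control array it was −1.98 (adjusted p = 0.0402), and without the first it was −0.37 (adjusted p = 0.434). Pygl, the liver form of glycogen phosphorylase, which frees glucose 1-phosphate from glycogen, was at 10.58 and 10.88 in the Control livers against 10.44 and 10.26 in the Cnot3KO livers. Its groups were apart by a small distance, with a difference of −0.38 ± 0.19 (95% interval −0.86 to 0.09, adjusted p = 0.239). Ppp1r3g, which brings protein phosphatase 1 to glycogen after a meal, was at 5.78 and 2.15 in the Control livers against 4.31 and 2.70 in the Cnot3KO livers. The Control arrays held both the highest and the lowest value, so the difference of −0.46 ± 1.22 spanned −3.52 to 2.60 (adjusted p = 0.827), and it turned to 1.35 without the first Control array and to 0.34 without the second Cnot3KO array.

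Of their 9 measured relatives in the synthase, phosphorylase and Ppp1r3 families, 2 rose (Pygb and Ppp1r3d) and 2 fell (Ppp1r3b and Ppp1r3c). Over all genes, 12.2% were called higher and 4.64% lower. Pygb, the phosphorylase named for brain, was at 4.53 and 4.59 in the Control livers against 8.18 and 8.12 in the Cnot3KO livers. With the arrays of each group nearly equal, it rose by 3.59 ± 0.16 (12.1-fold, adjusted p = 0.00273) and was called with any 1 array left out. Gyg, the glycogenin that primes new glycogen, rose from 6.29 and 5.92 to 7.54 and 7.40 (1.37 ± 0.20, adjusted p = 0.0158), with its other probe set called higher too, and the call was lost without the first Cnot3KO array (adjusted p = 0.0711). Ppp1r3b, the main glycogen-targeting subunit of protein phosphatase 1 in liver, was at 8.01 and 9.27 in the Control livers against 5.75 and 6.74 in the Cnot3KO livers. It fell by −2.40 ± 0.51 (adjusted p = 0.0398) with both groups apart, a call lost without either Control array or the first Cnot3KO array (adjusted p from 0.0557 to 0.107). Ppp1r3c, another subunit of that family, was at 8.26 and 9.17 in the Control livers against 6.54 and 6.92 in the Cnot3KO livers and fell by −1.99 ± 0.34 (adjusted p = 0.0229), lost without the first Cnot3KO array (adjusted p = 0.0741). The other Ppp1r3c probe set was at −0.82 (adjusted p = 0.307). Ppp1r3d of the same family, picked with its values in view, went the other way, from 2.55 and 2.69 to 3.72 and 3.53 (1.00 ± 0.17, adjusted p = 0.0228), a call lost with any 1 array left out (adjusted p from 0.0547 to 0.129). The phosphatase subunit genes Ppp1r3a, Ppp1r3e and Ppp1r3f, the muscle synthase Gys1 and the muscle phosphorylase Pygm were not called, at differences from −0.55 to 0.29.

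Pdk4, 1 of the kinases that inactivate the pyruvate dehydrogenase complex, was the gene of the 10 that was called higher. It was at 3.97 and 4.46 in the Control livers against 7.74 and 6.95 in the Cnot3KO livers. The lowest Cnot3KO array was above the highest Control array by more than the distance between the arrays of either group. The difference was 3.13 ± 0.32 (95% interval 2.32 to 3.94), or 8.75-fold (95% interval 4.98 to 15.4), with an adjusted p of 0.00805. Pdk4 was called with each array left out in turn, at differences from 2.73 to 3.52 and adjusted p from 0.00525 to 0.0471.

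The 4 kinases of the family differed in direction. Pdk3 was at 3.14 and 2.50 in the Control livers against 5.24 and 4.93 in the Cnot3KO livers and rose by 2.26 ± 0.27 (adjusted p = 0.00991). Pdk1 was at 7.53 and 7.24 in the Control livers against 5.65 and 5.67 in the Cnot3KO livers and fell by −1.73 ± 0.18 (adjusted p = 0.00809), on all 3 of its probe sets. Pdk2 was at 6.74 and 6.40 in the Control livers against 5.73 and 6.24 in the Cnot3KO livers, and its difference of −0.58 ± 0.24 did not pass (adjusted p = 0.176). Both the rise of Pdk3 and the fall of Pdk1 were called with any 1 array left out. Of the 11 measured genes of the pyruvate dehydrogenase complex, its other kinases and its phosphatases, 2 rose and 3 fell, with a median of −0.03. By the same test 12.2% of all genes were called higher and 4.64% lower. The phosphatase Pdp1, which reactivates the complex, rose by 1.32 ± 0.17 (adjusted p = 0.0119) from 3.29 and 3.11 to 4.57 and 4.48, on 1 of 2 probe sets, a call lost without the first Cnot3KO array (adjusted p = 0.0593). Its regulatory partner Pdpr fell by −1.16 ± 0.20 (adjusted p = 0.0224) from 6.80 and 6.44 to 5.54 and 5.38, on 3 of 4 probe sets. The Pdpr call was lost without the first Control array (adjusted p = 0.0729) or without either Cnot3KO array (adjusted p = 0.0778 and 0.0932).

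**Figure D3:**
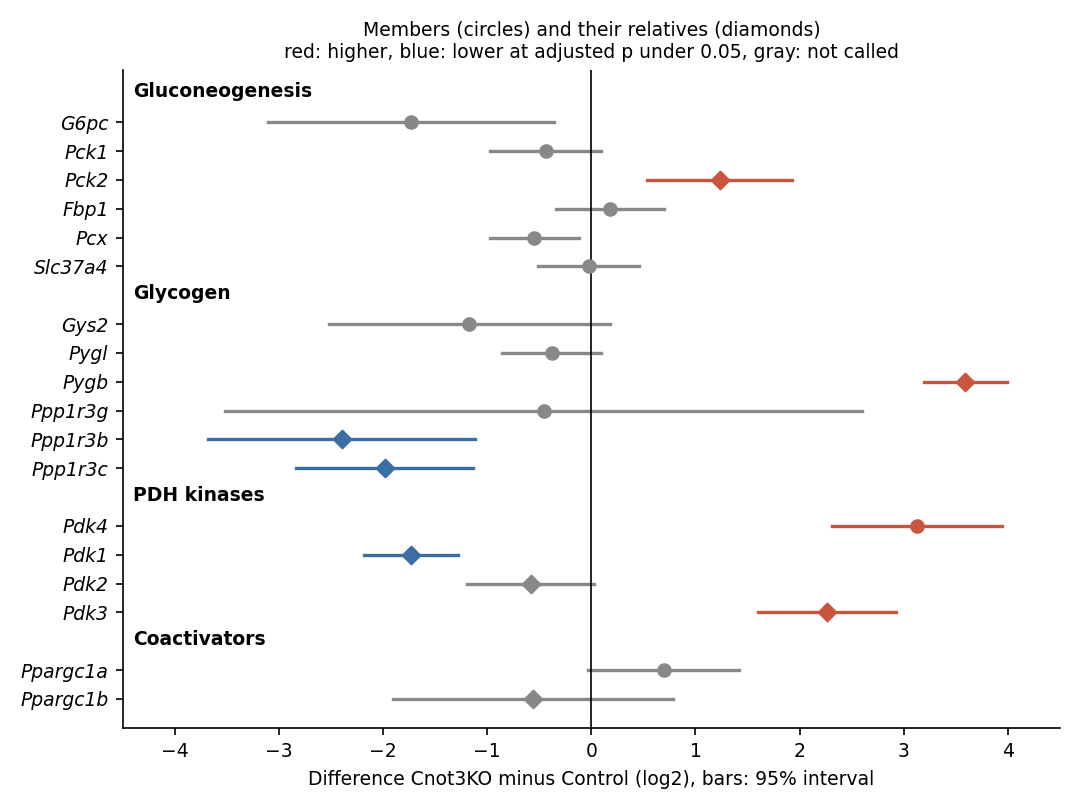
Differences between Cnot3KO and Control on the log2 scale with 95% intervals, for the 10 genes (circles) and 8 close relatives (diamonds), red where called higher, blue where called lower and gray where not called. Pdk4 at 3.13 is the circle that passed the test, and Pdk3, Pygb and Pck2 are called higher and Pdk1, Ppp1r3b and Ppp1r3c lower among the relatives.

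Ppargc1a, the coactivator that raises transcription of gluconeogenic genes in fasting, was at 6.70 and 5.95 in the Control livers against 6.89 and 7.16 in the Cnot3KO livers on its brightest probe set, 1460336_at. The groups were narrowly apart, and the difference of 0.70 ± 0.29 did not pass (95% interval −0.03 to 1.42, adjusted p = 0.175). A dimmer probe set, 1437751_at, was at 4.28 and 3.76 in the Control livers against 5.09 and 5.26 in the Cnot3KO livers and was called higher (1.15 ± 0.23, adjusted p = 0.0332). That call was kept without the first Control array (1.41, adjusted p = 0.0473) and lost with any other array left out (adjusted p from 0.0706 to 0.123). The other 3 probe sets had overlapping groups, with differences of 0.28, 0.37 and 0.50 and adjusted p from 0.339 to 0.610. On all 5 probe sets the second Control array held the lowest value. Ppargc1b, the related coactivator, was at 7.52 and 5.86 in the Control livers against 6.25 and 6.00 in the Cnot3KO livers (−0.56 ± 0.53, adjusted p = 0.515), and its call turned on 1 array, with −1.39 (adjusted p = 0.0427) without the second Control array and 0.27 (adjusted p = 0.438) without the first.

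The other genes of glucose supply were counted in 5 further lists, and the members with the largest called differences are named. Their counts stand beside 12.2% of all genes called higher and 4.64% called lower. Of 24 other gluconeogenic and substrate supply genes measured, 4 rose and 2 fell, with a median of 0.06. The alanine transaminase Gpt2, which makes pyruvate from alanine, fell by −1.30 ± 0.20 (adjusted p = 0.0173), on 3 of 4 probe sets. Gpt, the other alanine transaminase, was picked with its values in view and went the other way. It rose from 9.82 and 9.89 in the Control livers to 10.63 and 10.67 in the Cnot3KO livers (0.80 ± 0.16, adjusted p = 0.0330). The glycerol 3-phosphate dehydrogenase Gpd1, through which glycerol enters the route, fell by −1.25 ± 0.18 (adjusted p = 0.0156), on 2 of 3 probe sets. Tpi1, triosephosphate isomerase, rose by 1.21 ± 0.25 (adjusted p = 0.0385), also on 2 of 3. Gpt2, Gpd1 and Tpi1 were called without the second Control array and lost with any other array left out. Of 16 other glycogen genes, 3 rose and 1 fell, with a median of −0.09. Beside Pygb and Gyg, Nhlrc1, a ubiquitin ligase of glycogen quality control, rose by 0.78 ± 0.18 (adjusted p = 0.0464). The branching enzyme Gbe1 fell by −0.74 ± 0.16 (adjusted p = 0.0437), and the calls of Nhlrc1 and Gbe1 were lost with any 1 array left out.

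Of 15 glycogen phosphatase subunits and kinases, 2 rose and 4 fell, with a median of −0.38. Of all genes, 12.2% were called higher and 4.64% lower. Beside Ppp1r3b and Ppp1r3c, the protein kinase A subunits Prkar2a and Prkar1a were called in opposite directions on their brightest probe sets. Prkar2a was at −1.57 ± 0.24 (adjusted p = 0.0170), called on 2 of 4 probe sets. Prkar1a was at 1.24 ± 0.19 (adjusted p = 0.0173), called on 1 of 3, with the others at 0.13 and −0.37. Both genes lost their calls with the probe sets of each gene averaged. Prkar2a was called only without the second Cnot3KO array, and Prkar1a only without the first Control array, when 1 array was left out. Of 6 measured genes of glycolysis in liver, 1 rose and 2 fell, with a median of −0.51. The 6 include Gckr, the regulatory protein of glucokinase, which is not itself an enzyme. Pklr, the pyruvate kinase of liver, fell by −1.88 ± 0.31 (adjusted p = 0.0208) from 7.75 and 6.95 to 5.64 and 5.30, on 2 of 3 probe sets. Pfkfb3, which makes the glycolytic activator fructose 2,6-bisphosphate, fell by −1.48 ± 0.33 (adjusted p = 0.0459). Its other probe set was at −0.43 (adjusted p = 0.192). The related Pfkfb4 rose by 0.72 ± 0.16 (adjusted p = 0.0469). Pklr was called without the second Control array or the first Cnot3KO array, Pfkfb3 only without the second Control array and Pfkfb4 under none of the 4 omissions.

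Of 41 transcription factors, receptors and hormone signalling genes of the fasting response, 1 rose and 4 fell, with a median of −0.25. The shares of all genes were 12.2% higher and 4.64% lower. Mlxipl, the carbohydrate response factor that drives Pklr, fell by −1.71 ± 0.19 (adjusted p = 0.00923) and was called with any 1 array left out. Klf15, a fasting-induced activator of gluconeogenic and amino acid genes, was at 9.75 and 9.75 in the Control livers against 8.25 and 8.44 in the Cnot3KO livers and fell by −1.40 ± 0.17 (adjusted p = 0.0104), a call lost without the first Cnot3KO array (adjusted p = 0.0523). Cebpb fell by −0.89 ± 0.19 (adjusted p = 0.0378) and Nr4a1, an orphan receptor induced by glucagon, rose by 1.01 ± 0.22 (adjusted p = 0.0432). The Cebpb call was lost with any 1 array left out, and that of Nr4a1 was kept only without the second Control array. Ppara and Foxo1, known activators of Pdk4 and of G6pc, were picked with their values in view. The mean of Ppara was 8.54 over the Control and 6.80 over the Cnot3KO arrays (−1.74 ± 0.44, adjusted p = 0.0596), and Foxo1 was at 7.57 and 7.63 in the Control livers against 7.21 and 6.84 in the Cnot3KO livers (−0.58 ± 0.19, adjusted p = 0.114). The RNA of an activator does not measure its activity.

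**Figure D4:**
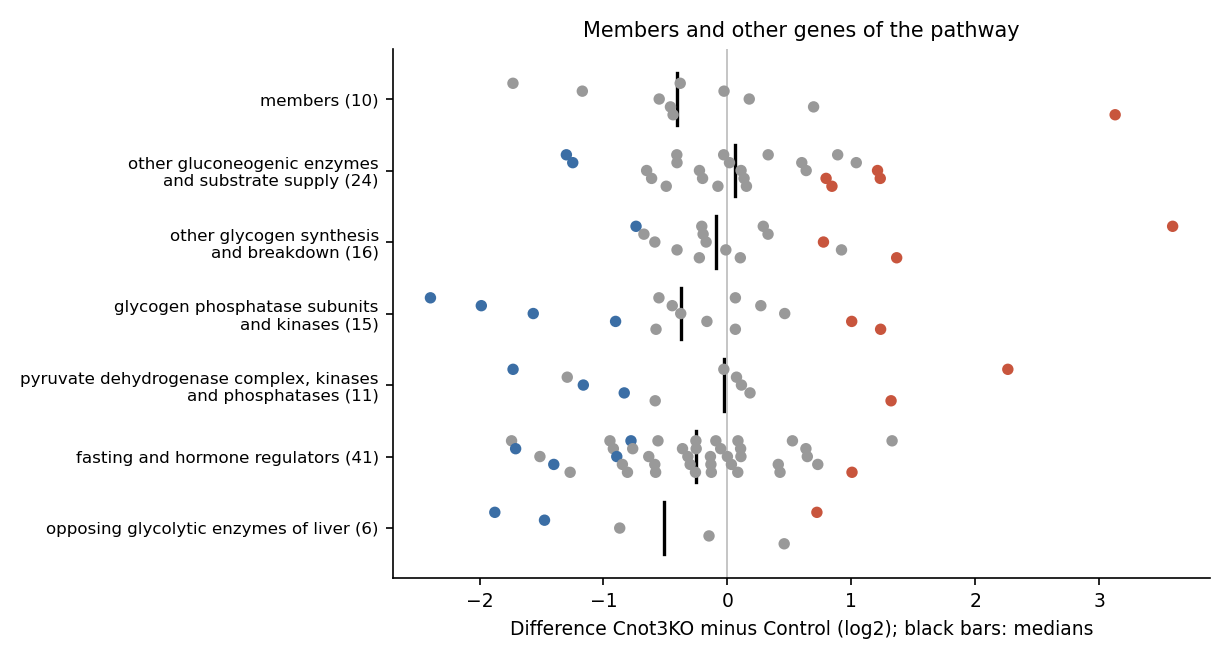
Differences between Cnot3KO and Control on the log2 scale for the 10 genes and 6 further gene lists, with the number of measured genes in brackets, 1 dot per gene, red where called higher, blue where called lower, gray where not called, and black bars at the medians. The medians run from −0.51 for the opposing glycolytic genes to 0.06 for the other gluconeogenic genes, and Pdk4 is the only red dot among the 10.

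Several of the 10 genes varied more between the arrays of a group than most genes did. The median distance between the 2 Control arrays was 0.48 over the 10 genes and 0.24 over all genes, and between the 2 Cnot3KO arrays 0.35 and 0.19. In Control, 3 of the 10 genes differed by more than 1 between the arrays (G6pc by 1.10, Gys2 by −1.61 and Ppp1r3g by −3.63, replicate 2 minus replicate 1), as did 3.31% of all genes. In Cnot3KO, 2 of them did (G6pc by 1.32 and Ppp1r3g by −1.60), as did 2.32% of all genes. These genes respond to meals and to the hour of the day. Dbp, Arntl and Per1, named after their values were seen, are clock genes whose RNA rises and falls over the day in liver. Dbp was at 10.37 and 3.64 in the Control livers against 7.41 and 5.49 in the Cnot3KO livers, the same order of the 4 arrays as Ppp1r3g. Arntl was at 2.40 and 7.24 in the Control livers against 5.02 and 6.27 in the Cnot3KO livers, the opposite order. Per1 had neither order, since its second Control array, at 5.98, lay just above its second Cnot3KO array, at 5.89. G6pc and Gys2 had neither order as well, so the likeness to Dbp holds for Ppp1r3g and not for the other genes with wide spread. The part of the hour of dissection in the values of the 10 genes was not tested.

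**Figure D5:**
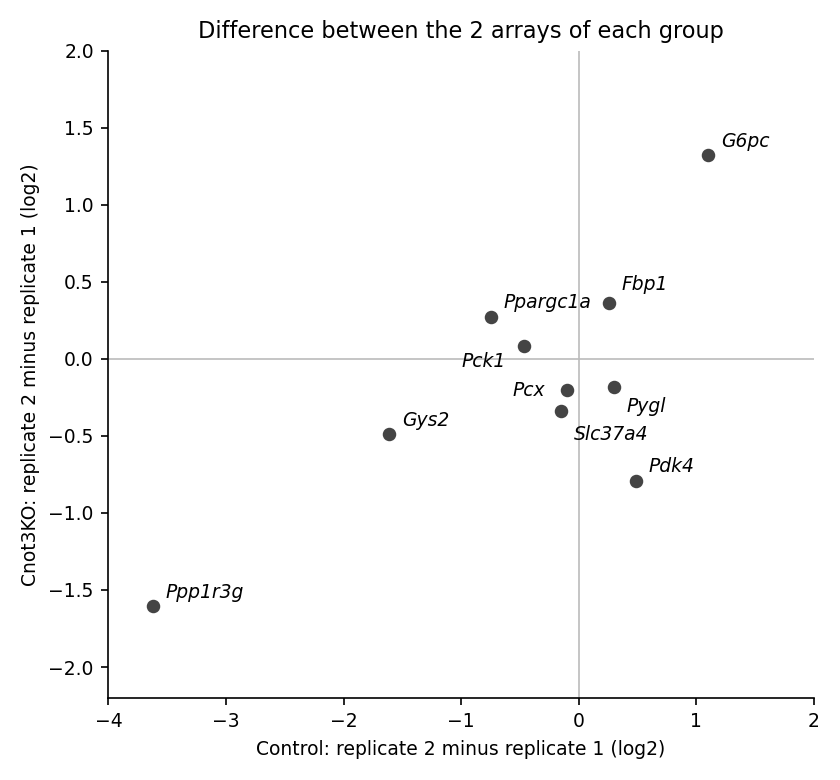
For each of the 10 genes, replicate 2 minus replicate 1 on the log2 scale in Control (horizontal axis) and in Cnot3KO (vertical axis). Ppp1r3g at −3.63 and −1.60 and G6pc at 1.10 and 1.32 lie far from the centre in both groups, while Pcx and Slc37a4 lie near it.

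Genes whose pattern over the 4 arrays was most like that of G6pc or Pdk4 were sought among 16748 genes, by Euclidean distance after each gene was centred on its Control mean. The nearest to G6pc were Cyp26a1, which breaks down retinoic acid (distance 0.397), the protease inhibitor Tfpi2 (0.429) and the glutathione transferase Gsta3 (0.433). They differed by −1.86, −1.55 and −1.64 between the groups and, like G6pc, were not called (adjusted p from 0.0551 to 0.114). The nearest to Pdk4 were Herc6, an interferon-induced gene (0.213), the dynein heavy chain gene Dnah1 (0.278) and the channel gene Panx1 (0.281). Herc6 was at 4.94 and 5.31 in the Control livers against 8.59 and 7.68 in the Cnot3KO livers (adjusted p = 0.00939), and Dnah1 and Panx1 rose by 3.09 and 3.06 (adjusted p = 0.00467 and 0.00727). With 4 arrays, this likeness describes the size of the group difference and the order of replicates and little else.

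Markers of other liver cells moved with the groups too. Their counts stand beside shares of all genes of 12.2% called higher and 4.64% called lower. Macrophages and Kupffer cells were represented by 19 markers, of which 10 rose and 1 fell (median 1.08), and their mean level was 6.46 to 6.60 in Control and 7.39 to 7.46 in Cnot3KO, although Adgre1, a macrophage surface receptor, was at 0.80 ± 0.35 (adjusted p = 0.190). Of 17 stellate cell and fibroblast markers 10 rose (median 1.09), with mean levels of 6.34 to 6.60 and 7.41 to 7.70, and the collagen gene Col1a1 rose by 1.90 ± 0.31 (adjusted p = 0.0198). Of 8 cholangiocyte and progenitor markers 5 rose (median 2.12), with mean levels of 2.96 to 3.26 and 5.33 to 6.03, and the keratin gene Krt19 rose by 1.45 ± 0.30 (adjusted p = 0.0376). Of 17 hepatocyte markers 0 rose and 2 fell (median −0.02), with mean levels of 12.57 to 12.59 and 12.43. Endothelial markers had 0 of 14 and T, B and NK cell markers 0 of 11 called, with medians of −0.06 and −0.09 (Stab1 −0.04, Cd3e −0.19). Of 12 erythroid markers 3 fell (median −0.63, mean level 4.01 to 4.82 in Control and 3.45 to 3.81 in Cnot3KO), and of 9 muscle, fat and pancreas markers 1 fell (median −0.13), with Ckm at −0.19. The part of these other cells in the values of Pdk4, Pygb, Pdk3 and Pck2 was not tested.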

How the data were processed

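RNA of 4 mouse livers, 2 Control and 2 Cnot3KO, was hybridised to Affymetrix mouse 3′ expression arrays. The authors deposited linear intensities per probe set from RMA (version not stated), which corrects background, normalizes between arrays and summarises probes, and it is not stated if further arrays entered that step. The intensities were turned to log2 here with no added constant. No detection calls were used, and the number of arrays limits the precision. The titles and the study speak of separate mice in each group.

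Following the methods of the study, probe sets in the lowest 20% of every array were dropped, which left 38405 of 45037. Probe sets were named through the platform annotation: 34945 named 1 gene, 932 several (not used for genes) and 9160 none. A gene was represented by its kept probe set of highest mean. Groups were compared with lmFit and eBayes in limma 3.58.1 (R 4.3.3), 2-sided, with 5.40 degrees of freedom in all and 3.40 from the prior, and Benjamini-Hochberg adjustment over kept probe sets. The fit was tested on simulated data. Summaries and plots were made in Python 3.11.15 (pandas 2.3.3, scipy 1.17.1, matplotlib 3.10.9). Probe sets are placed on no genome; promoters are those of RefSeq on GRCm38.p6.

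The 10 genes, the lists and the tests were chosen with earlier results of these data known. Named were the 10 genes, Cnot3, up to 4 called genes per pathway list with the largest difference, relatives of Pdk4, Ppp1r3g, Ppargc1a and Pck1, the 3 genes nearest to G6pc and Pdk4, and the leading marker of each cell type list, beside others said to be picked later. Alternatives were other filters, normalization, centring, probe set rules and priors, the replicate block, the methods' t-test, a fold threshold and each array left out.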

Additional observations from a re-analysis of the deposited data

How the results depend on the processing

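Pdk4 kept its call under 14 of 15 settings of filter, scaling, probe set rule, prior, block and arrays left out, at differences from 2.73 to 3.52. The exception was the methods' t-test with Benjamini-Hochberg adjustment (adjusted p = 0.202, unadjusted p = 0.0214), by which 0 of the 10 genes and 0 probe sets were called higher and 1 probe set lower (3860 and 3977 at an unadjusted p under 0.05). The 10 genes had 0 called lower, and 1 with the replicate number as a block (G6pc −1.73, adjusted p = 0.0210), 1 with probe sets averaged per gene (Pck1 −0.78, adjusted p = 0.0444), from 0 to 1 with 1 array left out, and 2 by a difference under −1 in place of a test. Same-numbered arrays deviated with a correlation of 0.232 over only 2 numbers, which does not pair them, and under the block Pdk4 stayed called (adjusted p = 0.0252) while Cnot3, Cebpb, Gbe1, Nhlrc1, Pfkfb4 and the Ppargc1a probe set 1437751_at (adjusted p = 0.0554) did not. Over all probe sets 3258 were higher and 1837 lower (63.95% of calls higher). Centring on ribosomal protein genes moved the median difference from −0.083 to −0.221 and gave 3169 lower (46.55% of calls higher), and averaging the probe sets of each gene, which tests fewer features, gave 2003 higher and 886 lower. With 1 array left out there were 1194 to 1973 higher and 508 to 1394 lower. Leaving out 1 array also turned the sign of values that were not called, with ranges of −2.27 to 1.35 for Ppp1r3g, −0.20 to 0.14 for Slc37a4, −0.0062 to 0.36 for Fbp1, −1.39 to 0.27 for Ppargc1b, and −0.11 to 0.85 and −0.22 to 0.78 for the Ppargc1a probe sets 1434099_at and 1434100_x_at. Of the 24 other named genes called, 19 to 24 were called under the other settings, 0 under the t-test and 5 to 15 with 1 array left out, and 0 turned. Cnot3 missed the threshold under an intensity-dependent prior (adjusted p = 0.0551) and under the block (adjusted p = 0.0517). A group with 1 array left was assumed to vary like the other.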
